A study of Mus musculus with 6 samples.

Results

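The nuclear genes for the subunits of respiratory complexes III, IV and V were measured in whole kidneys of mice with a proximal tubule knockout of Pck1 and of their WT littermates. The set holds 35 genes: 9 subunits of complex III, cytochrome c, 10 subunits of complex IV and 15 subunits of complex V. They were found on the arrays through the RefSeq accession of each probe. Of the 35 genes, 34 had a named probe and all of these passed the filter on dim probes, among 17135 genes tested in all. Cox5b matched no named probe and is not analysed here. The 6 genes listed from the mitochondrial genome also matched none, so every value below is of a nuclear gene.

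Total RNA of 6 kidney samples was hybridised to 1-colour Agilent arrays, with 3 samples in each group, all from C57BL/6J mice killed at 32 weeks. Pck1-CKO mice carried Pck1 flox/flox with γGT-Cre tg/+, in which a γ-glutamyl transferase promoter drives Cre in the proximal tubule. WT mice were littermates matched for age and sex. The breeding gave controls with the Cre transgene and 1 floxed allele, with 1 floxed allele alone and with both alleles floxed, and which of these each WT sample was is not given. Whole kidney was profiled, so the measured RNA also came from nephron segments and cells in which the promoter is not described as active, and fewer cells of a type cannot be told apart from less RNA per cell.

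Complex III passes electrons from ubiquinol to cytochrome c, complex IV passes them on to oxygen, and both pump protons across the inner mitochondrial membrane. Complex V, the ATP synthase, lets the protons return and uses the energy to make ATP. The proximal tubule reabsorbs most of the filtered load and depends on oxidative phosphorylation to do so, which makes the kidney rich in these transcripts. Pck1 encodes the cytosolic phosphoenolpyruvate carboxykinase, which feeds gluconeogenesis from intermediates of the citric acid cycle.

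Values are log2 signals relative to the 75th percentile of each array, so a gene at 7 lies 7 log2 units above that percentile. Between 37116 and 38707 of 56605 probes were well above background on an array, and 0 spots were saturated. All 6 arrays shared 1 slide and 1 scan, with Pck1-CKO in row 2 and WT in row 1, so that row and genotype cannot be told apart. Pck1 itself read 6.44, 6.60 and 6.90 in Pck1-CKO kidneys, against 6.29, 6.32 and 5.63 in WT kidneys. The knocked-out gene was thus not lower in the libraries labelled Pck1-CKO (log2 change 0.56 ± 0.22 SE, limma adjusted p = 0.1522). Its 1 probe has no stated position relative to the deleted part, so this is no check of the deletion, and every direction given here follows the array labels. Markers of the proximal tubule, 9 genes tested, had a summed linear level of 1460 to 1490 in Pck1-CKO and 1450 to 1510 in WT arrays, and 0 of them passed the test in either direction. The 9 distal nephron markers separated the groups in all 9 cases, where 38.3% of all genes tested did. Among them 1 was called higher (Aqp2, the collecting duct water channel, change 0.63) and 3 lower (Aqp6 at -0.94, Slc4a1 at -0.88 and Slc12a3 at -0.43). Over all genes tested, 4.34% were called higher and 3.7% lower. Their summed level was 502 to 518 in Pck1-CKO and 487 to 502 in WT arrays. Most of that sum is Umod, with a WT mean of 8.41 and a change of 0.14, while 6 of the 9 changes were negative. Of 6 leukocyte and blood markers 0 were higher and 1 was lower (Cd79b, change -0.44), with sums of 328 to 417 in Pck1-CKO and 263 to 335 in WT. Those sums are nearly all haemoglobin, as Hba-a1 and Hbb-bt had WT means of 7.85 and 5.79 log2. The leukocyte genes Ptprc, Cd68, Cd3e and Cd79b had WT means between -0.77 and 0.077, so the sums do not describe leukocytes. The part of these differences in the subunit values was not tested.

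None of the 34 subunit genes passed the test across all genes, which was limma with Benjamini-Hochberg adjustment at 0.05. The count was 0 higher and 0 lower in Pck1-CKO, where 4.34% of all genes tested were higher (743) and 3.7% were lower (634). Those counts over all genes fell to between 16 and 39 higher and 9 and 31 lower when WT 1, WT 2, Pck1-CKO 1 or Pck1-CKO 2 was left out, and the subunits gave 0 calls without any single array. Adjusted p-values ran between 0.1327 and 0.9686. Without adjustment, 0 genes were higher and 2 were lower at p under 0.05, where 31.2% of all genes reached that level. The changes were small in size: they ran between -0.12 for Atp5h and 0.10 for Cycs, with a median absolute change of 0.046, beside 0.12 over all genes tested. The subunit signals were bright, at 4.4 to 9.0, while those of all genes ran down to -8.14. No genes matched for brightness were compared. Complex I subunits had a median absolute change of 0.023, so small changes were not particular to this set. In 5 of the 34 genes (14.7%) the 3 Pck1-CKO values and the 3 WT values did not overlap, where 38.3% of all genes tested had that property.

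For the brightest probe of each gene, the arrays also limit how large a difference could have been present. The spread between replicates had a median residual SD of 0.041 over the subunit genes, beside 0.086 over all genes tested, dimmer ones included. Of the 34 intervals at 95% confidence, 32 covered 0 and 33 lay wholly within a change of 1.2-fold in either direction. Among these brightest probes the interval for Cycs reached furthest up, to 1.20-fold higher, and that for Cox6c furthest down, to 1.17-fold lower. Dimmer probes of Cycs and Cox7c reached further up, with log2 intervals of 0.063 to 0.43 and -0.15 to 1.22. With the mean of a gene's probes the highest upper limit among the subunits was 0.54 on the log2 scale. With arrays scaled to their medians the Cycs interval reached 0.36 on the log2 scale. Among the 1377 genes that passed the test across the array, the smallest absolute change was 0.17. Smaller changes hardly could pass in this fit, so that value gives the reach of the test and does not set the subunits apart. With array weights, which called more genes, Atp5h passed at -0.12, as described with that gene.

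**Figure D1:**
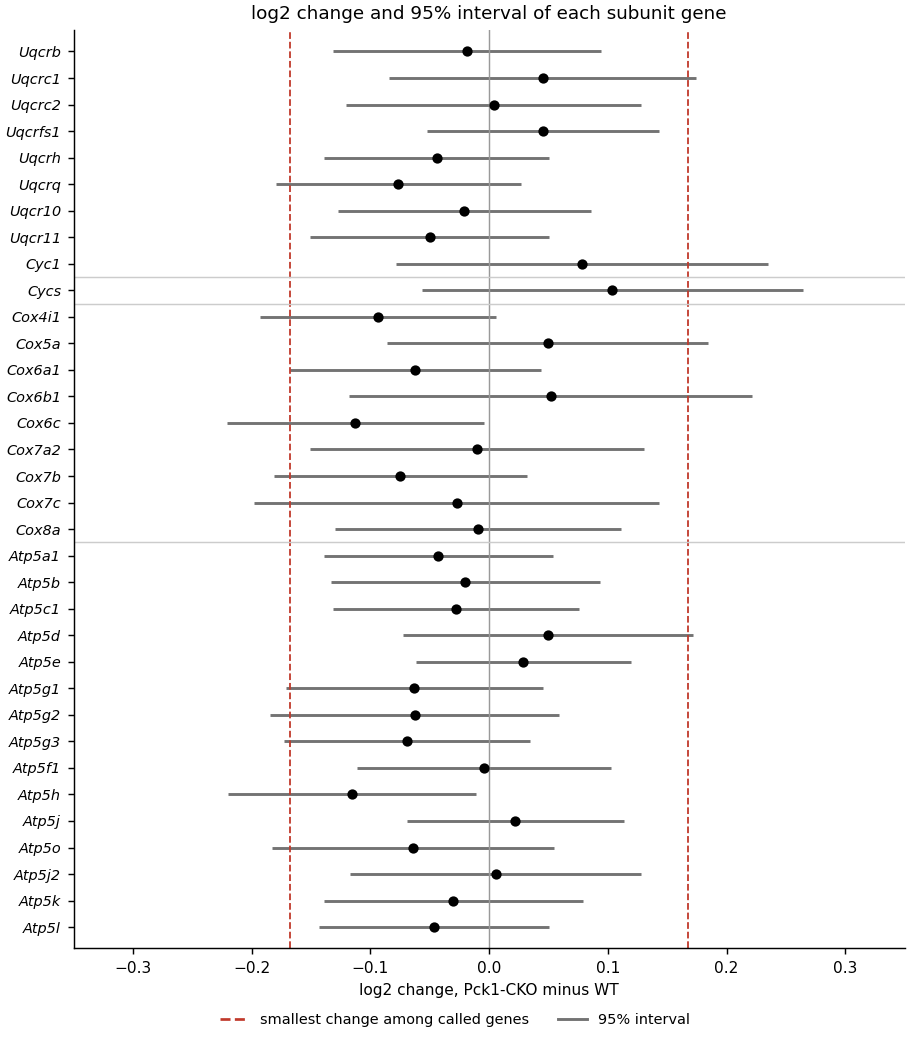
Change in log2 signal, Pck1-CKO minus WT, of each of the 34 subunit genes (points), with its 95% confidence interval from limma (bars), for complex III at the top, then Cycs, complex IV and complex V. The dashed lines mark the smallest absolute change among called genes, 0.17, which reflects the reach of the test. All points lie between them, with Atp5h at -0.12 and Cycs at 0.10.

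Signs leaned towards lower values in Pck1-CKO without any gene passing the test. Of the 34 changes, 11 were positive and 23 negative (32.4% positive), beside 52.2% positive over all genes tested. Complex I subunits leaned the same way, with 11 positive and 25 negative (30.6% positive), so the lean was not particular to this set. The median change was -0.024, beside 0.0091 over all genes, but with each array scaled to its median instead of its 75th percentile the subunits' median was 0.052 and that of all genes 0.085. Median scaling adds 1 constant to the change of every gene, so the sign of a small change depends on it. The median of the subunits minus that of all genes was -0.033. It was -0.012 with quantile normalization, -0.017 with normexp and quantile normalization, -0.013 with the mean of a gene's probes and -0.019 with array weights. Leaving out 1 array gave values between -0.053 (without WT 2) and -0.027 (without WT 3). With no filter on dim probes it was 0.0060, where the median of all genes was -0.030 and that of the subunits stayed at -0.024. Scaling to the array median moved the calls over all genes to 2434 higher and 560 lower, or 81.3% of calls higher, beside 54.0% with the 75th percentile.

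The WT arrays were spread more widely than the Pck1-CKO arrays. The median deviation of the 34 genes from their own mean over all arrays was -0.0034, -0.013 and -0.015 in the 3 Pck1-CKO arrays, against 0.012, -0.026 and 0.062 in the 3 WT arrays. All Pck1-CKO arrays thus lay between WT 2 and WT 1. WT 3 was the highest WT array in 25 of the 34 genes and WT 2 the lowest in 22, whereas over all genes tested the same deviations of the WT arrays were -0.015, -0.010 and 0.0051. Without WT 3 the median change of the subunits was -0.011, and without WT 2 it was -0.044.

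**Figure D2:**
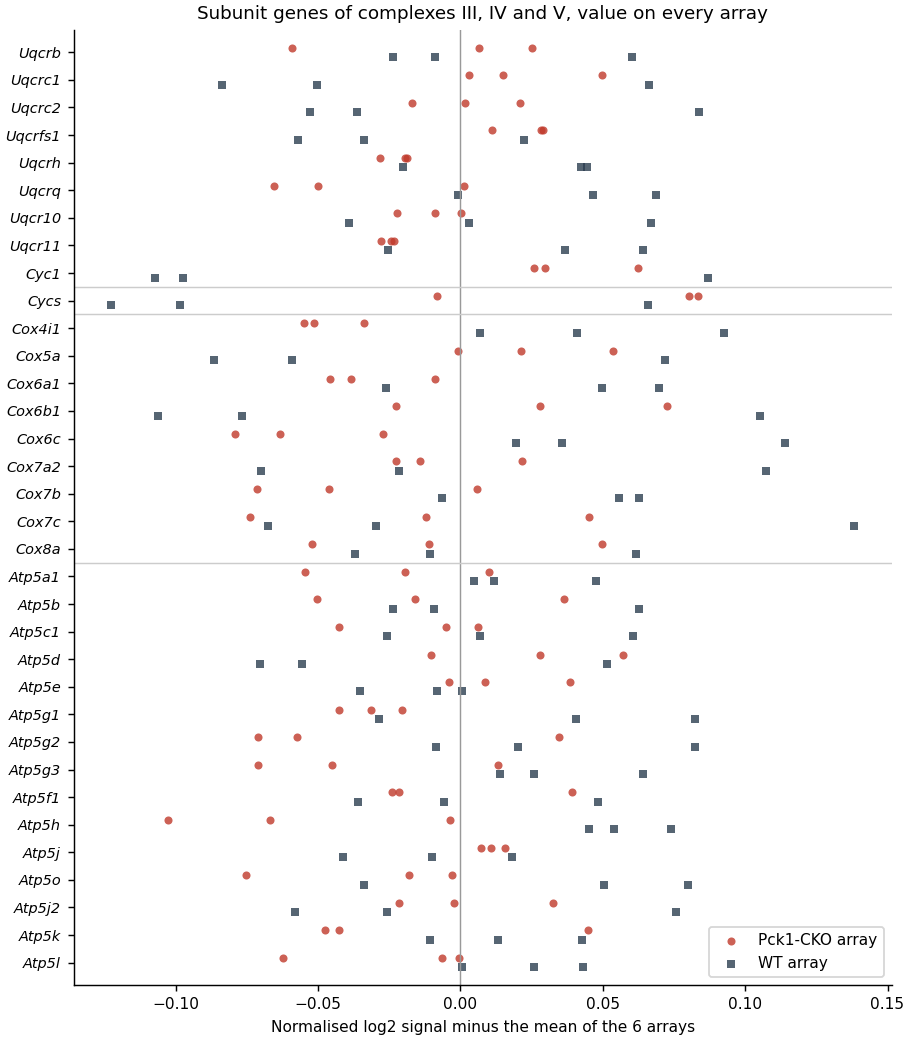
Normalised log2 signal of each subunit gene on every array, minus the mean of the 6 arrays, for Pck1-CKO (circles) and WT (squares), in the order complex III, Cycs, complex IV and complex V. WT 3 was the highest WT array in 25 of 34 genes, and circles and squares separate fully in 5.

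Complex III showed a median change of -0.018 over its 9 genes, 4 positive and 5 negative, and the groups overlapped in all 9. Its core proteins Uqcrc1 and Uqcrc2 lay at 0.045 and 0.0038, and the Rieske iron-sulfur protein Uqcrfs1 by 0.046. Uqcrfs1 read 6.03, 6.03 and 6.01 in Pck1-CKO kidneys, against 5.94, 5.97 and 6.02 in WT kidneys. The groups overlapped through WT 3, and the change did not pass (adjusted p = 0.4708, limma). Cyc1, the cytochrome c1 that hands electrons to cytochrome c, read 6.46, 6.49 and 6.46 in Pck1-CKO, against 6.33, 6.32 and 6.52 in WT. WT 1 and WT 2 lay below every Pck1-CKO array and WT 3 above, and the change was 0.079 ± 0.063 (SE).

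The brightest probes of the small accessory subunits of complex III had changes between -0.076 and -0.018, while the second probes of Uqcr10 and Uqcrb had 0.055 and 0.0008, and Uqcr11 had 0.0079 with normexp and quantile normalization. Uqcrq read 7.91, 7.86 and 7.84 in Pck1-CKO kidneys, against 7.98, 7.91 and 7.95 in WT kidneys. The groups touched at 7.91, and the change of -0.076 ± 0.042 (SE) did not pass (adjusted p = 0.2654, limma). Uqcrh, the hinge protein that contacts cytochrome c1, lay at -0.044 and Uqcr11 by -0.050. Uqcr10 lay at -0.021 with an interval of -0.13 to 0.086, and Uqcrb at -0.018 with an interval of -0.13 to 0.094.

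Cycs, the electron carrier between complexes III and IV, had the largest positive change in the set. It read 6.96, 6.96 and 6.87 in Pck1-CKO kidneys, against 6.78, 6.76 and 6.95 in WT kidneys, so the 2 groups overlapped through WT 3. The change was 0.10 ± 0.065 (SE), with an adjusted p of 0.3238 by limma. A second, dimmer Cycs probe read 5.52, 5.58 and 5.45 in Pck1-CKO, against 5.16, 5.27 and 5.38 in WT. There the groups did not overlap, and the change was 0.25 with an interval of 0.063 to 0.43, yet its adjusted p was 0.1086 in the limma fit over all probes. Weighting the arrays by their fitted quality changed the call of the first probe to higher in Pck1-CKO, with a change of 0.17 and an adjusted p of 0.035.

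Complex IV gave 2 positive and 7 negative changes with a median of -0.027, a median that was 0.048 after scaling to the array median and 0.021 after normexp background correction with quantile normalization. Cox6c, a small subunit of the membrane part, read 7.15, 7.10 and 7.12 in Pck1-CKO kidneys, against 7.30, 7.20 and 7.22 in WT kidneys. Every Pck1-CKO array was below every WT array. The change of -0.11 ± 0.044 (SE) had an interval of -0.22 to -0.0047 and an adjusted p of 0.1477 by limma. Cox4i1, the subunit through which ATP is known to slow the enzyme, read 7.73, 7.73 and 7.75 in Pck1-CKO, against 7.82, 7.79 and 7.87 in WT. These groups did not overlap either, and the change of -0.093 ± 0.040 (SE) missed the threshold (adjusted p = 0.1803, limma).

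Cox7b read 6.11, 6.08 and 6.16 in Pck1-CKO kidneys, against 6.21, 6.15 and 6.22 in WT kidneys. One WT array lay among the Pck1-CKO values, and the change was -0.075 ± 0.043 (SE, adjusted p = 0.2891, limma). Cox6a1, the brightest probe of the set, read 8.93, 8.89 and 8.90 in Pck1-CKO, against 8.98, 8.91 and 9.00 in WT. Its highest processed signal before scaling was 298667, where the scanner's saturation value was 778861, and 0 spots were flagged as saturated. The positive changes were those of Cox5a, which faces the matrix, at 0.049, and Cox6b1, which bridges the monomers of the dimer, at 0.052. Cox7a2, Cox7c and Cox8a lay at -0.010, -0.027 and -0.0092.

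Complex V had the largest share of the genes, with 4 positive and 11 negative changes and a median of -0.030, or 0.046 after scaling to the array median. In the catalytic F1 head, Atp5b, the subunit that makes ATP, read 8.30, 8.24 and 8.21 in Pck1-CKO kidneys, against 8.32, 8.24 and 8.25 in WT kidneys. That is a change of -0.020 with an interval of -0.13 to 0.093. Its partner Atp5a1 lay at -0.043, and Atp5c1, the rotating shaft, by -0.028. Atp5d and Atp5e, which join that shaft to the membrane rotor, lay at 0.050 and 0.029.

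The rotor ring in the membrane is built of subunit c, and Atp5g1, Atp5g2 and Atp5g3 encode this same mature protein behind different import signals. All 3 genes lay on the negative side by nearly equal amounts, and all 3 were between 0.0068 and 0.013 under median scaling. Atp5g1 read 7.15, 7.13 and 7.12 in Pck1-CKO kidneys, against 7.21, 7.14 and 7.25 in WT kidneys, a change of -0.063. Atp5g2 read 6.85, 6.83 and 6.94 in Pck1-CKO, against 6.92, 6.90 and 6.99 in WT, a change of -0.063. Atp5g3 read 7.60, 7.54 and 7.51 in Pck1-CKO, against 7.65, 7.61 and 7.60 in WT, a change of -0.069. The groups overlapped in Atp5g1 and Atp5g2 and barely separated in Atp5g3, and adjusted p-values were 0.3696, 0.4244 and 0.3102 in that order (limma). The Atp5g2 probe was printed in 10 spots per array, and the SE of an array's mean over these spots was 0.016 to 0.021 in Pck1-CKO and 0.015 to 0.019 in WT arrays. The SD between arrays was 0.057 in Pck1-CKO and 0.046 in WT (n = 3 each).

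Atp5h, the d subunit of the stalk that holds the head still, had the lowest p of the set. It read 7.09, 7.02 and 6.99 in Pck1-CKO kidneys, against 7.16, 7.14 and 7.14 in WT kidneys, without overlap. The change of -0.12 ± 0.042 (SE) had an interval of -0.22 to -0.011 and an adjusted p of 0.1327 by limma. Its other probes lay at -0.082 and -0.068, so all 3 had the same sign. With arrays weighted by quality it was called lower at -0.12 with an adjusted p of 0.04276. That weighting gave Pck1-CKO 2 a weight of 3.02 and WT 3 a weight of 0.354.

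The other stalk subunits had changes closer to 0. Atp5o, which ties the stalk to the top of the head, lay at -0.064, and Atp5f1 and Atp5j by -0.0042 and 0.022. Among the small membrane subunits that help pair the enzyme into dimers, Atp5l lay at -0.046, with groups that did not overlap, and Atp5k by -0.030. Atp5j2 lay at 0.0056. Of the 47 probes that represent the 34 genes, 0 passed in the limma fit over all probes, where 4.29% of probes passed in either direction. In the 11 genes with several probes, 6 of the 13 further probes had the sign of the brightest one. The widest disagreement was in Cox7c, whose dimmer probe read 4.90, 4.76 and 4.33 in Pck1-CKO, against 4.48, 4.33 and 3.57 in WT, with an interval of -0.15 to 1.22.

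In contrast to the standard subunits, 2 tissue isoforms of complex IV rose. Several subunits of cytochrome c oxidase have a second gene that replaces the standard one in heart, skeletal muscle, brown fat, lung or testis. Of 10 such isoforms and partners listed, 9 were tested and 2 were higher in Pck1-CKO and 0 lower. Cox8b, the isoform of heart, skeletal muscle and brown fat in the mouse, read 2.90, 2.86 and 3.38 in Pck1-CKO kidneys, against -2.36, -0.01 and -0.15 in WT kidneys. The groups were far apart, with WT 1 lowest, and the change was 3.88 ± 0.65 (SE), or 14.7-fold (limma adjusted p = 0.0336). Without WT 1 it was 3.12. The call was lost without WT 2 or any 1 of the Pck1-CKO arrays, with adjusted p-values up to 0.119 by limma.

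Cox6a2, the isoform of heart and skeletal muscle that brown fat also uses, read 1.10, 1.20 and 0.83 in Pck1-CKO kidneys, against 0.31, 0.34 and -0.03 in WT kidneys. It was 1.79-fold higher (log2 change 0.84 ± 0.14 SE, limma adjusted p = 0.03398). That call was lost without WT 1, WT 2, Pck1-CKO 1 or Pck1-CKO 2. The third isoform of this kind, Cox7a1, read 4.20, 4.21 and 4.28 in Pck1-CKO, against 4.20, 4.20 and 4.16 in WT, and did not pass (change 0.044, adjusted p = 0.5026). The testis isoforms Cox6b2 and Cox7b2 had changes of -0.30 and -0.45 with adjusted p-values of 0.06512 and 0.1145 by limma. The standard subunits that these isoforms replace were in the set above, and Cox8a and Cox6a1 lay at -0.0092 and -0.062.

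**Figure D3:**
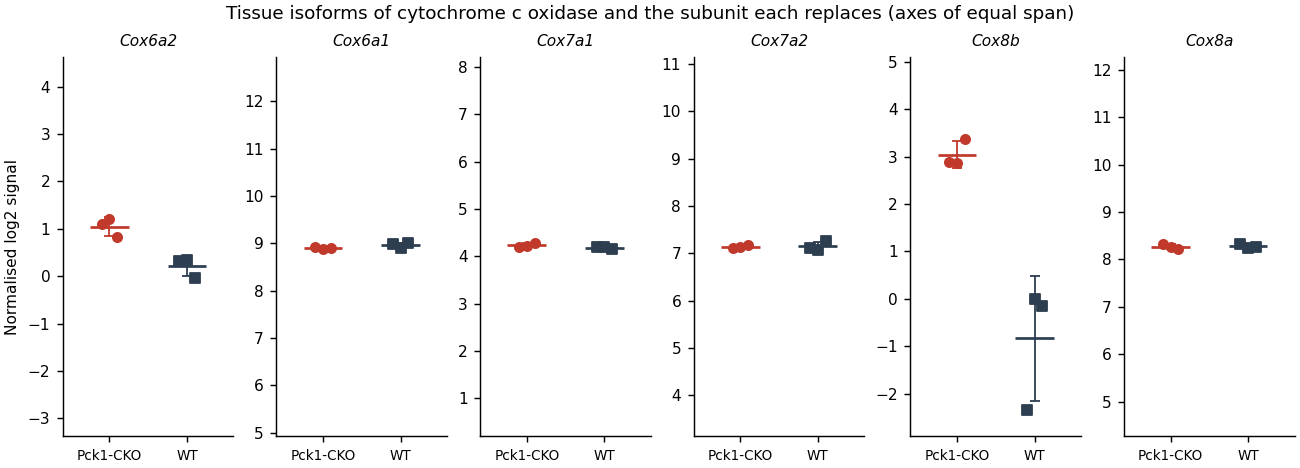
Normalised log2 signal of 3 tissue isoforms of complex IV and of the standard subunit each replaces, in Pck1-CKO (circles) and WT (squares) kidneys. Points are arrays, long bars are means and short bars are SD (n = 3 each), with all axes of equal span. Cox8b and Cox6a2 were higher in Pck1-CKO, and Cox7a1 and the 3 standard subunits had differences of 0.062 or less in size.

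The log2 ratio of each isoform to its standard subunit was taken within each array, which leaves out any scaling of arrays. For 6 isoform pairs the change of this ratio was tested with a 2-sided exact permutation test, in which 3 arrays against 3 cannot give a p below 0.1. The ratio of Cox8b to Cox8a was 3.89 higher in Pck1-CKO (exact p = 0.1, adjusted 0.15) and that of Cox6a2 to Cox6a1 was 0.90 higher (exact p = 0.1, adjusted 0.15). The ratios of Cox6b2 to Cox6b1 and of Cox7b2 to Cox7b were -0.35 and -0.38 by the same measure, each with an exact p of 0.1 and an adjusted p of 0.15. Those of Cox4i2 to Cox4i1 and Cox7a1 to Cox7a2 differed between the groups by 0.14 and 0.055 (exact p = 0.3 and 0.8).

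Several markers of fat were also higher in Pck1-CKO. Of 7 brown fat markers tested, 5 were higher and 0 lower, with a summed linear level of 49.9 to 54.4 in Pck1-CKO, against 19.0 to 21.5 in WT arrays. That list contains Cox8b, Cox7a1 and Ucp1 themselves. Most of the WT sum is Cox7a1, which hardly differed (4.20 to 4.28 in Pck1-CKO, 4.16 to 4.20 in WT), so the sums understate the other markers' difference. Of 8 general adipocyte markers, 3 were higher and 0 lower, with summed levels of 87.1 to 138 in Pck1-CKO, against 16.6 to 34.1 in WT. Lep, one of them, hardly differed (change 0.037). The adipocyte sum was highest in Pck1-CKO 3, where Cox8b was highest of its group (3.38) and Cox6a2 lowest (0.83). Ucp1, the uncoupling protein that lets protons bypass complex V, read 3.84, 3.73 and 3.37 in Pck1-CKO, against -3.59, -0.47 and -0.70 in WT. Its change was 5.23 ± 0.85 (SE, limma adjusted p = 0.03169), and 4.23 without WT 1. It was no longer called without WT 2, Pck1-CKO 1 or Pck1-CKO 2. Of 7 skeletal muscle markers only 2 passed the filter on dim probes, with 0 called. The part that fat in the samples played in the isoform values was not tested.

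The proximal 250 bases of promoters were read for the brightest subunit gene, the subunit gene with the lowest p and the isoform with the largest change. Nuclear respiratory factor 1 (NRF1) and ETS-family factors such as GABP are known activators of respiratory subunit genes. The letters GCGCA, any base and GCGC in a row for NRF1 and CCGGAAG for ETS were searched on both strands in the bases before the start of each gene, in RefSeq sequences of GRCm38.p6. Of 34 tested subunit genes, 27 had 30 promoter windows in that table. The NRF1 letters were in 5 of these windows (16.7%), beside 3.74% of 32851 windows of all genes, and the ETS letters in 8 (26.7%), beside 6.91%. The GC box GGGCGG was in 7 (23.3%), beside 32.7%. A match is a description of letters and does not show that a factor binds there.

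Cox6a1 (chr5:115348959-115349208, minus strand) and Atp5h (chr11:115419920-115420169, minus strand) hold both motifs, and Cox8b (chr7:140900447-140900696, minus strand) holds neither in this window. Among the 27 subunit genes with windows, only Cox6a1 and Atp5h hold both, so they are not typical of the set. Each of the NRF1 and ETS motifs was absent from most windows, of subunit genes and of all genes. Each is printed 5′ to 3′ along the gene and ends at the base before the start, with the NRF1 and ETS letters in capitals. In both genes the ETS letters stand on the opposite strand and so read CTTCCGG.
Cox6a1: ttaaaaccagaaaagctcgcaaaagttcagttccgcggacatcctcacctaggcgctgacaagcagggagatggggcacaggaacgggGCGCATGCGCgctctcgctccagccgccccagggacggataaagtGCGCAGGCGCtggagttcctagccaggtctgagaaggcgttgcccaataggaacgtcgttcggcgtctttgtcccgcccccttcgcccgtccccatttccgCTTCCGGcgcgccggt
Atp5h: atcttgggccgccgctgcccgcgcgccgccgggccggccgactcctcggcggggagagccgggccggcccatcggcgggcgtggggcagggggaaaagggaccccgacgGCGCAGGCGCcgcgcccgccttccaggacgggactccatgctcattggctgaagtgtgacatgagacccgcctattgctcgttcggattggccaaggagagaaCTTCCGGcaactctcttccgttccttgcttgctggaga
Cox8b: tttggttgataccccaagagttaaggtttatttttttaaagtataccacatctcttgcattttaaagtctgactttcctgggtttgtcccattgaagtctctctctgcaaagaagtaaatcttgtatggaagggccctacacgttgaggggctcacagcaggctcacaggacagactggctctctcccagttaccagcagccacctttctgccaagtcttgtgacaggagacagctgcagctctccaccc

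Genes that build the complexes were read beside the subunits. Of 6 complex III assembly genes, 1 was higher and 0 lower. Uqcc1, which helps to load cytochrome b into complex III, read 2.83, 2.87 and 2.82 in Pck1-CKO kidneys, against 2.46, 2.45 and 2.63 in WT kidneys. Its change was 0.32 ± 0.060 (SE, limma adjusted p = 0.03773). Its 3 dimmer probes disagreed in size and sign, with changes of 1.22, 0.17 and -0.035, and adjusted p-values of 0.007455, 0.09552 and 0.7152 in the limma fit over all probes, where the brightest probe had 0.05218. By gene, Uqcc1 was called without WT 3 and in no fit that left out another array.

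Of 22 complex IV assembly genes, 1 was higher and 1 lower. Coa5, a factor needed for complex IV to form, fell to 0.55, 0.51 and 0.49 in Pck1-CKO kidneys, against 0.87, 0.87 and 0.89 in WT kidneys. The change was -0.36 ± 0.038 (SE, limma adjusted p = 0.01538); the SD over replicates was 0.031 in Pck1-CKO and 0.011 in WT (n = 3 each). Coa4, a small intermembrane space protein of the same process, read 0.93, 0.93 and 0.83 in Pck1-CKO, against 0.64, 0.61 and 0.58 in WT (change 0.28 ± 0.046 SE, limma adjusted p = 0.03202). Its second probe lay at 0.20 and did not pass in the limma fit over all probes (adjusted p = 0.06774), where the first had 0.04689. The calls of Coa5 and Coa4 were both lost without WT 1, WT 2, Pck1-CKO 1 or Pck1-CKO 2. Of 4 complex V assembly genes 0 passed. The lowest p there was that of Atpaf2, a chaperone of the F1 head, which lay at 0.13 (adjusted p = 0.1037, limma).

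**Figure D4:**
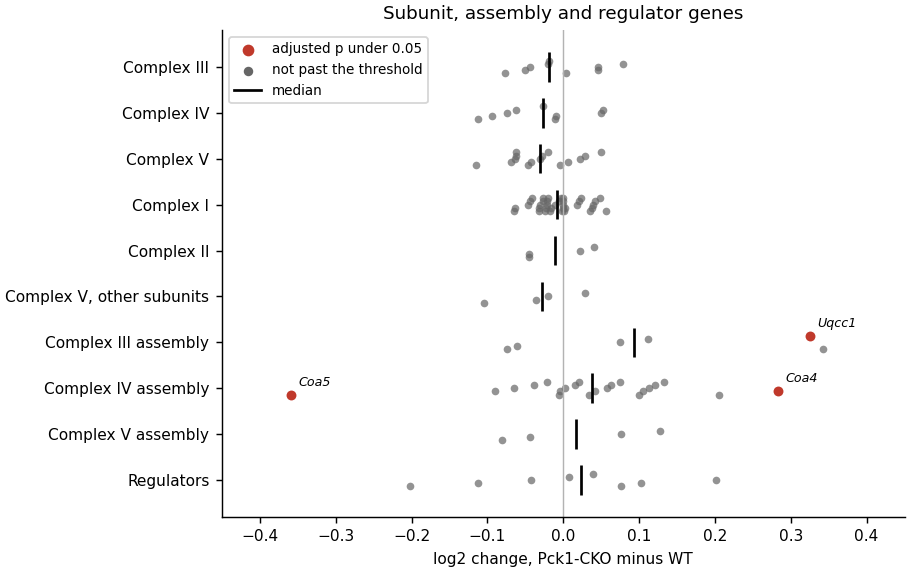
Change in log2 signal, Pck1-CKO minus WT, of the genes in 10 lists: subunits of complexes III, IV and V, subunits of complexes I and II, other complex V subunits, assembly genes and regulators. Each point is a gene, the vertical bar is the median of its list, and the larger points mark Uqcc1, Coa4 and Coa5, the 3 genes with an adjusted p under 0.05.

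Complex I, the proton pump at the start of the chain, gave no call either. Of 36 subunit genes tested, 0 were higher and 0 lower, 0 reached an unadjusted p under 0.05, and the median change was -0.0084. The lowest p was that of Ndufa2, which lay at -0.065 (limma adjusted p = 0.284). Complex II, with 4 genes, and the 4 other complex V genes gave 0 calls. Their lowest p-values were those of Sdhb, the iron-sulfur subunit of succinate dehydrogenase, at -0.045 (adjusted p = 0.4896), and Atp5s, listed as Dmac2l, at -0.10 (adjusted p = 0.187). Among 8 regulators of respiratory genes 0 passed, and Ppargc1a, a coactivator of mitochondrial biogenesis, had the lowest p at -0.20 (limma adjusted p = 0.09699).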

How the data were processed

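Kidney RNA of 3 Pck1-CKO and 3 WT samples was labelled with Cy3 for 1-colour Agilent arrays, per the labels. Intensities in the deposited scanner files are linear, from Agilent Feature Extraction 10.7.1.1, per the submitters' processing notes, and the processed signal is background-subtracted, per the file headers. The linear ratio in the deposited value table was used as an alternative. Its column medians were 0.1, 0.098 and 0.099 for Pck1-CKO and 0.105, 0.104 and 0.103 for WT, and for values of 1 or more its quotient to the processed signal was 1 number for each array, to 0.01 log2, in at least 99.9% of probes. Its scale and direction are thereby known.

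The log2 processed signal was taken, 46 to 94 outlier spots per array were dropped, replicate spots averaged and the array's 75th percentile subtracted. Probes were named by RefSeq accession (GRCm38.p6): 34675 of 56605 had 1 symbol. The filter asked for a signal well above background on 3 or more of 6 arrays, which 38370 probes met, 25519 of them named. The brightest probe stood for a gene. The array of the files uses another build, so probe coordinates are not given. Genes were tested 2-sided with limma 3.58.1 in R 4.3.3, without covariates, adjusted by Benjamini-Hochberg over 17135 genes. The script was tested on simulated data.

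The labels do not say whether samples of a group came from separate animals, so the p-values rest on the spread among these samples only, which may be technical. Their number limits the precision. The members and lists were chosen with earlier results of these data known. Named genes were the 5 subunits with the lowest p, Pck1, and in each other list up to 3 genes past the threshold, or else the one with the lowest p. Values of other members were given in addition, chosen after they were seen. The 17 alternatives are in the closing section.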

Additional observations from a re-analysis of the deposited data

How the results depend on the processing

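Over the 17 alternatives the subunits gave 0 calls except with array weights, which called 1 higher (Cycs) and 1 lower (Atp5h). The lowest adjusted p among them was 0.06402 with a trended and robust variance and 0.07945 without WT 3. With array weights the counts over all genes were 3286 higher and 2614 lower, with a trended and robust variance 1682 and 1149, and with no filter on dim probes 61 and 81. Median normalization gave 2434 higher and 560 lower. Leaving out 1 array gave 16 to 779 genes higher and 9 to 806 lower. The median change under median normalization was 0.0517 for all subunits, 0.0574 for complex III, 0.0484 for complex IV and 0.0455 for complex V, and that of complex IV was 0.0210 with normexp and quantile normalization. The cause of these shifts was not tested.

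Same-numbered arrays did not pair (correlations of -0.001, -0.115 and -0.023), and with the replicate number as a block 3 genes were higher and 1 lower, with adjusted p-values of 0.05627 to 0.09466 for Cox8b, Cox6a2, Uqcc1, Coa5, Coa4 and Ucp1. Of these 6 calls, leaving out WT 1 kept 2, leaving out WT 3 kept 6, leaving out Pck1-CKO 3 kept 4 and dropping any of the other arrays kept 0, while 1 held with no filter. Atpaf2 was called in 2 alternatives and Ppargc1a in 3.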
